A study of Mus musculus with 18 samples.

Results

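The change in RNA location between untreated BV2 cells and BV2 cells exposed to 10 µM oxyhemoglobin for 12 h was measured for 8985 of the 55487 genes in the count table. These were the genes with a mean count of at least 10 in each of 4 groups: nuclear RNA at 0 h, cytoplasmic RNA at 0 h, nuclear RNA at 12 h and cytoplasmic RNA at 12 h. BV2 is an immortalised mouse microglial line, and oxyhemoglobin is the oxygen-carrying protein that red cells release into the brain after a bleed. All groups came from the same line and medium, with no sorting or genetic change named in the labels, and the 0 h cells received no oxyhemoglobin. Each group had 3 libraries, and groups at 24 h were given the same treatment for longer. The deposited table holds 1 mean count per gene and group, so no value had a spread between replicates, and no p-value is given.

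RNA is made in the nucleus and reaches the cytoplasm through nuclear pores after splicing and 3′ end formation. The share of a transcript found in each compartment depends on how fast it is made, exported and destroyed on either side. In macrophages and microglia, inflammatory mRNAs are known for rapid induction and for rapid cytoplasmic decay, while some long noncoding RNAs, small nucleolar RNAs and intron-retaining transcripts stay in the nucleus.

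The shift of a gene was its log2 nuclear-to-cytoplasmic ratio at 12 h minus the same ratio at 0 h. A value above 0 means that the transcript moved toward the nucleus relative to the cytoplasm. Equally, the shift is the nuclear log2 ratio of 12 h over 0 h minus the cytoplasmic one, and these are called its nuclear and its cytoplasmic part. Levels are in counts per 1000000 (CPM) after scaling of the 6 groups together. A gene was called where its shift was at least 2-fold, which is 1 on the log2 scale, and its 95% counting interval excluded 0. The same rule was used for each part, and a transcript is said to have risen or fallen in a fraction only where that rule was met. The intervals cover counting error alone.

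Of the 8985 genes, 1055 were called toward the nucleus (11.7%) and 226 toward the cytoplasm (2.52%). The median shift was 0.42, a 1.33-fold change, and 75.3% of genes lay above 0. This overall level depended on how the 4 groups were scaled. With total counts in place of the trimmed mean of M-values, the median was 0.10, and 297 genes were called toward the nucleus against 471 toward the cytoplasm. Nuclear calls were thus 82.4% of all calls under the first scaling and 38.7% under the second. The direction in which most transcripts moved is therefore not fixed by these data, since the libraries hold no measure of RNA per fraction or per cell. In such bulk fractions, fewer cells and less RNA per cell cannot be told apart.

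The order of the genes does not depend on that choice, because another scaling adds the same amount to every shift. Gene lists are therefore described by their distance from the median of all 8985 genes, and their calls, where given, are both about 0 and about that median. Shares called by 3′ UTR motif, exon number and GC content are about 0 only, and these shares depend on the scaling. Taken about the median of all genes, 181 genes (2.01%) were called toward the nucleus and 626 (6.97%) toward the cytoplasm. The call counts of each list below are to be read beside these shares, and those about 0 beside 11.7% and 2.52%. A count near its share does not set a list apart from all genes. The middle 50% of genes had shifts from 0.01 to 0.76, and the 5th and 95th percentiles were -0.70 and 1.21. Of the 113 called genes among those named, 52 were called under all 6 other scalings. The typical precision was ± 0.31, the median distance from a shift to the edge of its interval.

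Transcripts called in either direction usually had parts of opposite sign in the 2 fractions under this scaling. The sign of a part depends on the scaling: over all genes the nuclear and cytoplasmic medians were 0.16 and -0.18 here, -0.06 and -0.08 with total counts, and -0.15 and -0.79 with deposited TPM. The counts below hold for the first of these only. Among the 1055 genes called toward the nucleus, 714 (67.7%) had a nuclear part above 0 and a cytoplasmic part below 0, with medians of 0.47 and -0.77. Among the 226 called toward the cytoplasm, 153 had a nuclear part below 0 and a cytoplasmic part above 0, with medians of -0.32 and 1.00. The cytoplasmic part was the larger one in size for 59.5% of the first set and 77.4% of the second. In the nucleus alone, 773 genes rose (8.6%) and 162 fell (1.8%). In the cytoplasm alone, 446 rose (4.96%) and 828 fell (9.22%). Only 2 genes rose in the nucleus and fell in the cytoplasm by the rule, among them the ribosomal protein pseudogene Rpl21-ps15. No gene did the reverse.

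**Figure D1:**
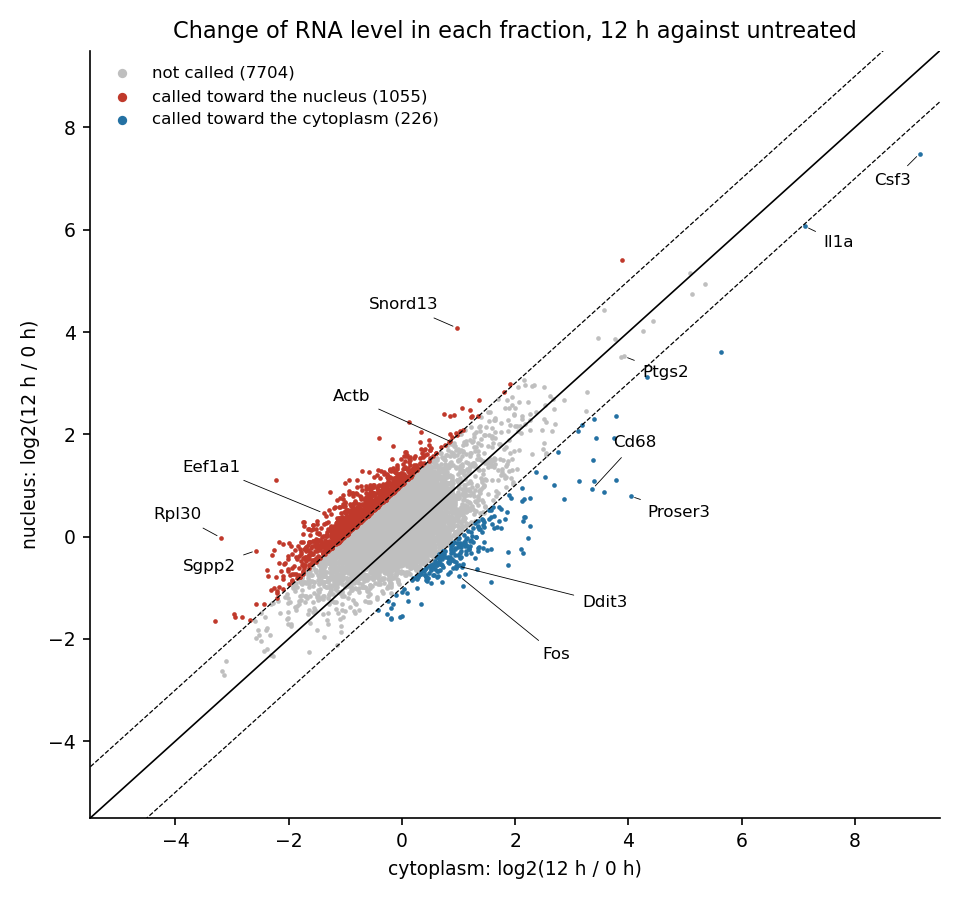
Log2 ratio of 12 h over 0 h in the cytoplasm (x axis) and in the nucleus (y axis) for each of the 8985 genes, 1 point per gene. On the solid line the shift is 0, and on the dashed lines it is 1 or -1; Csf3 lies far along the solid line and still below it (cytoplasmic part 9.14, nuclear part 7.49), while Rpl30 and Sgpp2 lie above it with nuclear parts near 0.

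Inflammatory mediators under NF-kB, the transcription factor that drives cytokine and chemokine genes, stood toward the cytoplasm relative to all genes. Of the 37 genes on that list, 19 had enough counts. Their median shift was -0.39 against 0.42 for all genes, 15 of the 19 lay below the median of all genes, 5 were called toward the cytoplasm and 0 toward the nucleus, with the same counts about the median. With a minimum of 100 counts, 9 members were left, at 0.16 against 0.57 for all genes, so that the distance fell from -0.80 to -0.40. Most of the transcripts rose in both fractions, and the median parts were 2.82 in the nucleus and 3.12 in the cytoplasm. In the nucleus 15 of the 19 passed the rule as higher, and in the cytoplasm 14 did.

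Csf3 encodes the granulocyte growth factor G-CSF and lies at chr11:98701263-98703629 (GRCm38). Its nuclear level was 3.77 CPM at 0 h, 677 CPM at 12 h and 294 CPM at 24 h. Its cytoplasmic level was 4.03, 2284 and 897 CPM at the same times. The transcript rose 180-fold in the nucleus and 566-fold in the cytoplasm by 12 h, and the shift was -1.66 (95% counting interval -2.13 to -1.18). At 0 h the mean counts were only 31 in the nucleus and 19 in the cytoplasm, which sets the width of that interval.

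Il1a encodes the alarm cytokine interleukin-1 alpha. It stood at 2.60, 174 and 62.2 CPM in the nucleus and at 18.5, 2572 and 630 CPM in the cytoplasm at 0, 12 and 24 h, with a shift of -1.05 (-1.44 to -0.65). Another gene overlaps 11.2% of its exonic bases. Ccl3, a chemokine that attracts monocytes and macrophages, was abundant already in untreated cells. It went from 412 to 1720 CPM in the nucleus and from 1212 to 10509 CPM in the cytoplasm, with a narrow interval around its shift of -1.05 (-1.09 to -1.01). Il1rn, the natural antagonist of the interleukin-1 receptor, had a shift of -1.21 (-1.52 to -0.90).

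The other called member, Csf1, differed from these 4 in its parts. This macrophage growth factor fell in the nucleus, with a part of -1.44, and its cytoplasmic part was -0.41. It is named here after its values were seen.

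The mediators that follow rose in both fractions with shifts that fell short of 2-fold, and they were not called. Ptgs2, which makes the precursor of prostaglandins, went from 57.6 to 663 CPM in the nucleus and from 128 to 1936 CPM in the cytoplasm, a shift of -0.39 (-0.50 to -0.29). Nos2, the inducible nitric oxide synthase, had nuclear and cytoplasmic parts of 2.69 and 2.68 and a shift of 0.02 (-0.36 to 0.40). Ccl2, a monocyte attractant, had the highest shift of the list at 0.87 (0.46 to 1.29). The list thus spanned -1.66 to 0.87.

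Several mediators and regulators looked for by name were below the count minimum. Il1b had mean counts of 5 and 8 in the nucleus and cytoplasm at 0 h, and 526 and 2783 at 12 h. Il6 had 8 and 1.33 at 0 h and 337 and 38.3 at 12 h. Tnf, Cxcl10 and Zfp36 also had fewer than 10 counts in at least 1 of the 4 groups. No shift is given for these genes, and the median of the list therefore leaves out strongly induced members.

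Regulators that restrain NF-kB or destroy inflammatory mRNAs were called in both directions about 0. Of 23 measured, 2 were called toward the nucleus and 2 toward the cytoplasm, against 0 and 3 about the median of all genes, and their median of 0.35 was near that of all genes. Zc3h12a, a ribonuclease that cuts cytokine mRNAs, rose from 21.7 to 82.3 CPM in the nucleus and from 28.1 to 302 CPM in the cytoplasm, a shift of -1.50 (-1.71 to -1.30). Traf1, an adaptor of TNF receptors, had a shift of -1.004 (-1.48 to -0.53). Tnfaip3, which encodes the ubiquitin-editing NF-kB inhibitor A20, had a shift of opposite sign: it rose from 8.11 to 26.2 CPM in the nucleus and stood at 9.98 and 13.1 CPM in the cytoplasm, a shift of 1.30 (0.90 to 1.71). Khsrp, which binds AU-rich mRNAs and promotes their decay, was called toward the nucleus at 1.02 (0.92 to 1.13). Neither Tnfaip3 nor Khsrp was called about the median of all genes. Nfkbia, the inhibitor IκBα, was not called, at -0.49 (-0.64 to -0.33).

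Many of these mRNAs carry AU-rich elements in the 3′ UTR, short sequences bound by proteins that speed decay. The sites below are 30 bases each from the 3′ UTR of the longest coding transcript in GENCODE M21 (GRCm38), with every TATTTAT in capitals, and show what a match looks like in 3 genes called toward the cytoplasm. Matches did not follow the calls: Zc3h12a, Il1rn and Traf1, also called toward the cytoplasm, had 0 TATTTAT, while Ptgs2 and Nfkbia, which were not called, had 6 and 2. They lie at chr11:98702985-98703014 on the plus strand for Csf3, chr2:129300108-129300137 on the minus strand for Il1a and chr12:85477102-85477131 on the plus strand for Fos.
Csf3: atagttTATTTATctctatttaaTATTTAT
Il1a: ttttatctatgTATTTATaaataTATTTAT
Fos: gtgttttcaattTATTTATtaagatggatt

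On the transcript's own strand, TATTTAT occurred in the 3′ UTR of 31.8% of the 7573 coding genes with such an annotation. It was found in 30.1% of the 146 called toward the cytoplasm and in 22.0% of the 869 called toward the nucleus. The shorter ATTTA, which TATTTAT contains, occurred in 73.0%, 68.5% and 61.3% of the same 3 sets. CCTCCC, a C-rich motif in mRNAs that stay in the nucleus, occurred in 46.7%, 39.0% and 52.1%. Genes called toward the nucleus thus held fewer AU-rich and more C-rich matches than all coding genes, while those called toward the cytoplasm were close to all genes for TATTTAT. The 3′ UTRs differ in length and base composition, and a match is not evidence of binding.

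Immediate early genes, which respond to signals within minutes and whose mRNAs are short-lived, included 3 called toward the cytoplasm and 0 toward the nucleus among 17, with the same counts about the median of all genes. Their median of 0.39 was near that of all genes. Fos, a subunit of the AP-1 transcription factor, stood at 28.6, 16.8 and 16.8 CPM in the nucleus at 0, 12 and 24 h and at 23.9, 48.2 and 24.6 CPM in the cytoplasm. Its cytoplasmic level was highest at 12 h, and the shift at 12 h was -1.78 (-2.05 to -1.51) against -0.81 at 24 h. Maff, a small partner of NRF2 and AP-1 factors, had a shift of -1.49 (-1.93 to -1.05), and Btg2, an antiproliferative regulator of mRNA deadenylation, one of -1.05 (-1.22 to -0.88). Jun, the partner of Fos, was not called at 0.72.

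The integrated stress response, in which the factor ATF4 is made when general translation is held back, gave 3 calls toward the cytoplasm and 0 toward the nucleus among 23 genes, against 4 and 0 about the median of all genes. Ddit3, the stress-induced factor CHOP, stood at 48.9 and 32.9 CPM in the nucleus and at 48.6 and 95.5 CPM in the cytoplasm at 0 and 12 h, a shift of -1.54 (-1.73 to -1.35). The other 2 were Psph, an enzyme of serine synthesis, at -1.16, and Slc3a2, the heavy chain of several amino acid transporters, at -1.08. Psph shares 24.8% of its sequence with other genes. The median of the whole list was 0.21, below the median of all genes, and that order turned under 2 other settings, when genes with any overlapping exon were left out and when the minimum was asked of any 1 group with 1 count added.

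**Figure D2:**
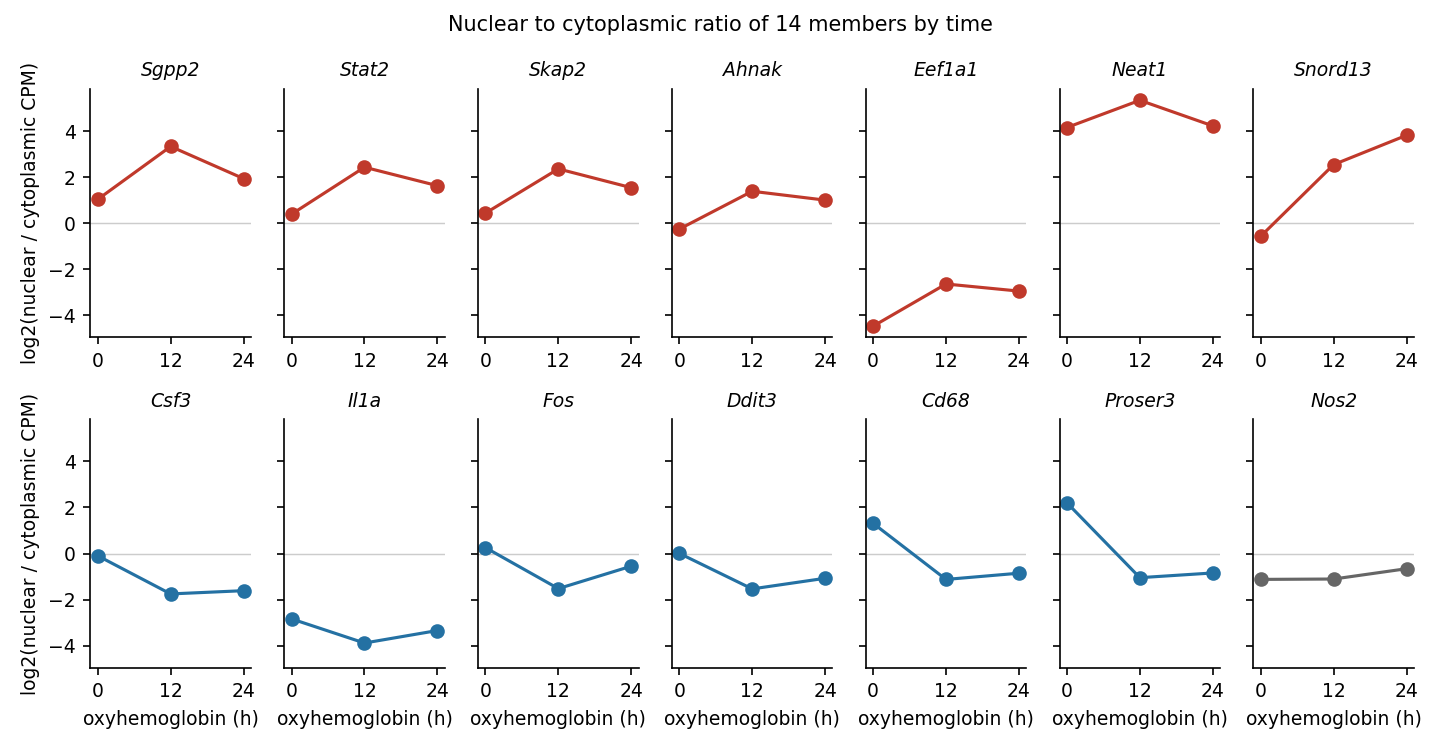
Log2 nuclear-to-cytoplasmic ratio of 14 genes (y axis) at 0, 12 and 24 h of oxyhemoglobin (x axis), from 1 scaled group mean per fraction and time, with no error bars since none can be had. Genes called toward the nucleus at 12 h are red, those called toward the cytoplasm blue and Nos2, not called, grey; the ratio of Neat1 went from 4.15 to 5.33 and back to 4.22, while that of Cd68 went from 1.31 to -1.12 and stood at -0.85 at 24 h.

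The largest single shifts toward the cytoplasm were in genes outside the inflammatory lists. Proser3, a gene of little-known function, rose from 2.19 to 36.1 CPM in the cytoplasm and stood at 10.1 and 17.5 CPM in the nucleus, a shift of -3.25 (-3.82 to -2.68). Its cytoplasmic mean count at 0 h was 10.3, just above the minimum. Cd68, a lysosomal membrane protein used as a marker of phagocytes, had 8.44, 16.1 and 22.7 CPM in the nucleus and 3.40, 35.0 and 41.1 CPM in the cytoplasm at 0, 12 and 24 h. Its shift was -2.44 (-2.93 to -1.94), and the ratio stayed low at 24 h with a shift of -2.17.

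Plekho2, at -2.47, and Tsc22d4, at -2.46, both had fewer than 20 counts in the cytoplasm at 0 h. Atp6v0c, a subunit of the lysosomal proton pump, rested on more reads, with a shift of -2.25 (-2.47 to -2.03) and cytoplasmic levels of 17.9, 83.8 and 68.0 CPM at 0, 12 and 24 h. It shares 35.2% of its sequence with other genes. Aldh2, the mitochondrial aldehyde dehydrogenase, had a shift of -1.72 (-1.99 to -1.44) and Nabp1, a single-stranded DNA-binding protein, one of -1.82 (-2.06 to -1.57). Ndufc2 and Sdhc, subunits of respiratory complexes I and II, had shifts of -2.35 and -1.46. Ndufc2 had an interval of -3.19 to -1.51. At 0 and 12 h its mean counts were 14 and 11 in the nucleus and 12.7 and 43 in the cytoplasm. S100a4 (-2.31), Platr16 (-2.42) and Rpph1 (-2.02) share more than 50% of their sequence with, or are overlapped by, other genes, and their values are uncertain for that reason.

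Toward the nucleus, small nucleolar RNAs gave 2 of the 5 largest shifts among genes named by the rule. These RNAs guide the chemical modification or cleavage of ribosomal RNA in the nucleolus. Snord13 (U13) acts in the processing of the small-subunit ribosomal RNA. Snord118 (U8), which acts in the processing of the large-subunit ribosomal RNAs, lies at chr11:69073427-69073561 on the plus strand. Both belong to the box C/D class. The full sequence of Snord118 is given to show what was counted, from GENCODE M21 on GRCm38 with matches on the transcript strand to the C box core TGATGA and the D box CTGA in capitals. TGATGA occurs in 26.1% and CTGA in 79.5% of the 1507 annotated small nucleolar RNA transcripts of all classes, and not every CTGA match is a D box.
Snord118: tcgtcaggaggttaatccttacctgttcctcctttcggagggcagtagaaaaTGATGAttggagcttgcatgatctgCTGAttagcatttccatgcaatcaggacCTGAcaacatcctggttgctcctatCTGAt

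Snord13 stood at 3.20, 54.2 and 87.1 CPM in the nucleus at 0, 12 and 24 h and at 4.74, 9.30 and 6.18 CPM in the cytoplasm. It rose 16.9-fold in the nucleus by 12 h, and the shift was 3.11 (2.56 to 3.66), with 4.38 at 24 h. Snord118 went from 18.4 to 86.6 and 116 CPM in the nucleus, while its cytoplasmic level was 36.9, 40.1 and 39.5 CPM, a shift of 2.11 (1.88 to 2.35). Of its sequence, 32.4% is shared with other annotated genes. Snora23, a box H/ACA RNA that guides pseudouridine formation, rose from 11.6 to 61.4 CPM in the nucleus. Its shift was 1.65 (1.00 to 2.30), with cytoplasmic mean counts of only 12 at 0 h and 16 at 12 h.

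The cytoplasmic levels of these 3 RNAs moved by less than 2-fold while the nuclear levels rose. Of all 12 small nuclear, nucleolar and polymerase III RNAs measured, 4 were called toward the nucleus and 1, Rpph1, toward the cytoplasm, with shifts from -2.02 to 3.11. The list's median was 0.11, below the 0.42 of all genes, and 7 of the 12 lay below that value, an order that turned when genes sharing at least 20% of their sequence were left out. About the median of all genes, 3 were called toward the nucleus and 4 toward the cytoplasm. Rn7sk, the nuclear RNA that holds back a transcription elongation factor, rose in both fractions by 1.43 and 1.25 and was not called. Such short RNAs are recovered unevenly by tagmentation libraries, and the effect on these values was not tested.

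Host genes, which carry small nucleolar RNAs in their introns, gave 1 call in each direction among 9, and about the median of all genes 1 toward the nucleus and 3 toward the cytoplasm. Snhg1 fell from 66.0 to 15.7 CPM in the cytoplasm and stood at 33.2 and 23.2 CPM in the nucleus, a shift of 1.55 (1.27 to 1.83). Snhg15 went the other way at -1.63 (-2.13 to -1.13), with 4.03, 8.58 and 2.98 CPM in the cytoplasm at 0, 12 and 24 h and a shift of 0.09 at 24 h.

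Long noncoding RNAs known to stay in the nucleus were close to the median of all genes, at 0.47 over 12 members, with 3 called toward the nucleus and 0 toward the cytoplasm, and 1 each way about that median. Neat1, the RNA scaffold of paraspeckles, stood at 7643, 12912 and 12109 CPM in the nucleus and at 430, 320 and 648 CPM in the cytoplasm at 0, 12 and 24 h. Its shift of 1.18 (1.12 to 1.24) at 12 h was 0.07 at 24 h. Malat1, an RNA of nuclear speckles, was not called at 0.23 (0.21 to 0.26). Airn, an antisense RNA of the imprinted Igf2r locus, had a shift of 1.67 (1.19 to 2.15) at 12 h and 0.26 at 24 h.

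Detained-intron transcripts, whose unspliced forms are held in the nucleus, stood toward the cytoplasm relative to all genes. Their median was -0.09, and 33 of 40 lay below the median of all genes, although 2 were called in each direction about 0. About the median of all genes, 0 were called toward the nucleus and 5 toward the cytoplasm. The list's median log2 nuclear-to-cytoplasmic ratio at 0 h was 2.01, against -1.25 for all genes. Coding genes with high ratios at 24 h also had low shifts, as given below. Srsf3, Clk1 and Srrm2, which encode a splicing factor, a kinase of splicing factors and a speckle scaffold, had shifts of -0.82, -0.34 and -0.49. Transcripts of paraspeckle and speckle proteins gave a median of 0.07 over 25 genes with no call about 0, and 2 toward the cytoplasm about the median of all genes. RNA decay and poly(A) factors had a median of 0.18 over 40 genes with 1 call in each direction. About the median of all genes, 0 of them were called toward the nucleus and 3 toward the cytoplasm. About that median, 6.97% of all genes were called toward the cytoplasm. These 3 lists lay below the median of all genes under each setting that changed the count minimum, the added count or the genes kept. A scaling cannot change that order.

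**Figure D3:**
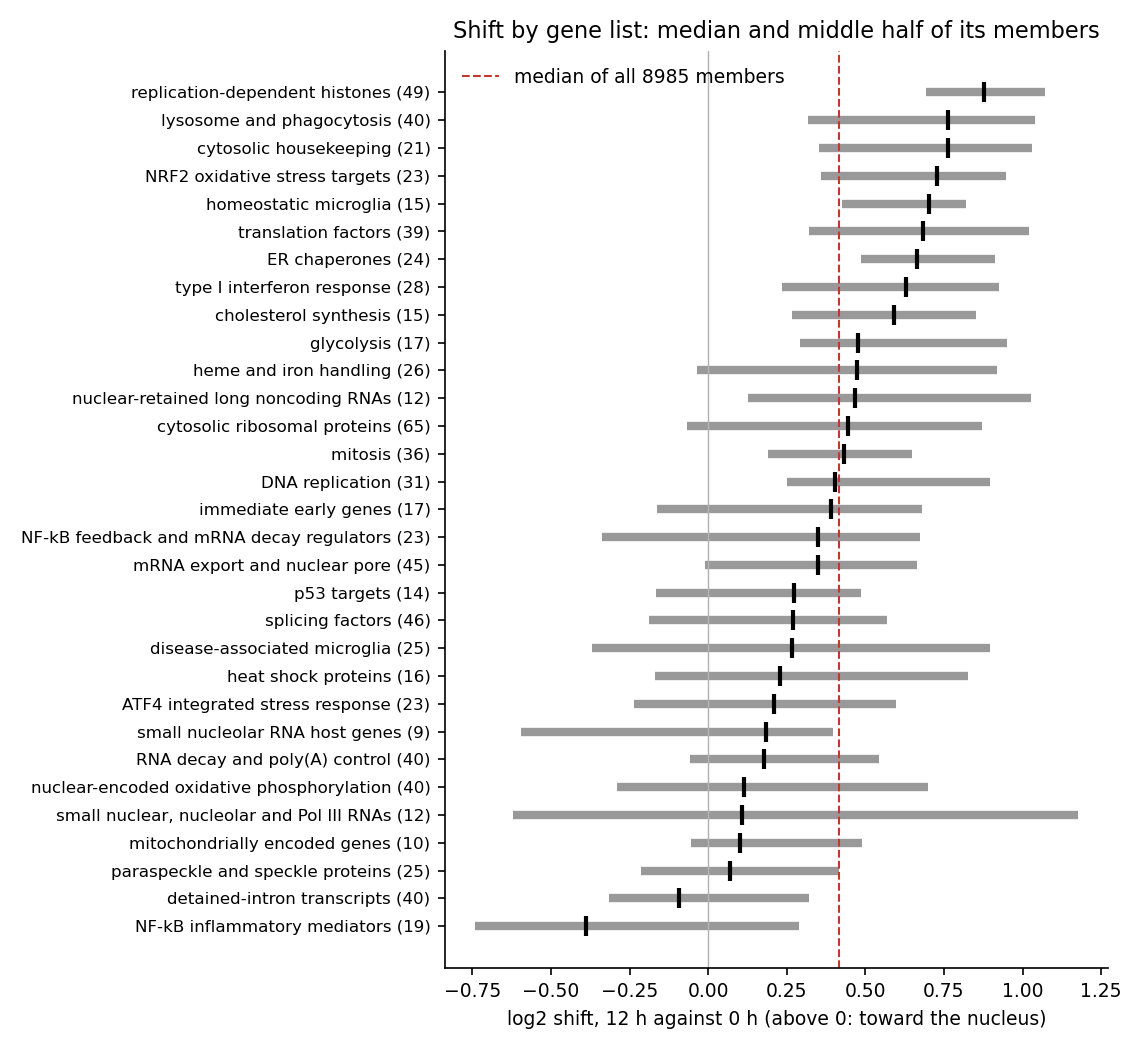
Shift at 12 h against 0 h (x axis, log2) for the 31 gene lists with at least 9 measured members (y axis, number in brackets). Black marks are medians, grey bars span the middle 50% of a list's members and the dashed line is the median of all genes, 0.42; NF-kB mediators (-0.39) and detained-intron transcripts (-0.09) lie lowest and replication-dependent histones (0.88) highest.

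Replication-dependent histone mRNAs, which have no introns and end in a stem-loop in place of a poly(A) tail, lay toward the nucleus relative to all genes. Of 49 measured, 45 were above the median of all genes, 19 were called toward the nucleus and 0 toward the cytoplasm, and the median shift was 0.88. About the median of all genes, 2 were called toward the nucleus and 1 toward the cytoplasm. Their median nuclear part was 0.70 and their median cytoplasmic part -0.21. Hist2h4, which encodes histone H4, stood at 269, 462 and 461 CPM in the nucleus at 0, 12 and 24 h and at 4164, 2861 and 3234 CPM in the cytoplasm, a shift of 1.32 (1.28 to 1.37). Hist1h2bf, a histone H2B gene, had the highest value at 1.57 (1.40 to 1.74). Many histone genes are near copies, and Hist1h2bf shares 73.5% of its sequence with other genes.

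Coding transcripts without introns also lay toward the nucleus when histones were left out. The 183 other coding genes whose transcript has a single exon had a median of 0.67, and 23.0% of them were called toward the nucleus. Among the 7391 coding genes with at least 2 exons, the median was 0.43 and the share 11.0%.

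Abundant mRNAs of protein synthesis followed in the same direction. Among 39 translation factors, 12 were called toward the nucleus and 0 toward the cytoplasm, with a median of 0.68. About the median of all genes these counts were 2 and 0. Eef2, which moves the ribosome along the mRNA, stood at 876, 1574 and 1587 CPM in the nucleus and at 17420, 11847 and 11815 CPM in the cytoplasm at 0, 12 and 24 h, a shift of 1.40 (1.38 to 1.43). Eef1a1, which brings aminoacyl-tRNA to the ribosome, went from 541 to 742 CPM in the nucleus and fell from 11997 to 4622 CPM in the cytoplasm, a shift of 1.83 (1.80 to 1.87). It shares 74.8% of its sequence with other genes. Summed with its 11 copies, the shift was 1.80 (1.77 to 1.84). Eif2s3x, a subunit of initiation factor 2, had 1.43 (1.35 to 1.52), and Qars, the glutaminyl-tRNA synthetase, 1.81 (1.58 to 2.04). Eef2 and Eif2s3x share 23.2% and 37.2% of their sequence with other genes.

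Housekeeping genes of the cytosol and cytoskeleton, often used as loading standards, had a median of 0.76 over 21 members, with 7 called toward the nucleus and 1 toward the cytoplasm, against 2 and 1 about the median of all genes. Tubb5, a beta tubulin, stood at 364 and 713 CPM in the nucleus and at 5565 and 3921 CPM in the cytoplasm at 0 and 12 h, a shift of 1.47 (1.43 to 1.51). Actg1, the gamma actin, had 1.73 (1.63 to 1.84). Actb, the beta actin, was not called at 0.90 (0.85 to 0.96) although it rose from 151 to 537 CPM in the nucleus. Actg1 and Actb share 57.1% and 35.3% of their sequence with other genes. Vim, the filament protein vimentin, fell in the cytoplasm, with a shift of 1.24 (1.10 to 1.38). Gapdh lay near the median of all genes at 0.40 (0.18 to 0.62), with 84.1% of its sequence shared with other genes.

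Cytosolic ribosomal protein genes were spread widely about the median of all genes, at 0.45 over 65 members, with 11 called toward the nucleus and 2 toward the cytoplasm, against 5 and 7 about that median. Rpl3 fell from 1505 to 507 CPM in the cytoplasm and stood at 317 and 300 CPM in the nucleus, a shift of 1.49 (1.42 to 1.55). Rps15a lay at the other end at -1.44 (-1.96 to -0.91). These genes have many processed copies in the genome, and 87.6% of the sequence of Rpl3 is shared with other genes.

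Rpl30, a protein of the large ribosomal subunit, had the largest shift toward the nucleus of the genes named by the rule and also shows how copies bear on such values. It stood at 75.9, 74.8 and 58.4 CPM in the nucleus at 0, 12 and 24 h and at 537, 58.5 and 287 CPM in the cytoplasm. The low cytoplasmic value at 12 h alone gave the shift of 3.18 (3.03 to 3.33), and the shift at 24 h was 0.53. The processed pseudogene Gm12191 moved the opposite way with a shift of -1.56. Of the 345 coding bases of Rpl30, 344 are identical in Gm12191, and the one substitution is G96A, counted from the first coding base, with the base of Rpl30 first. Bases 37 to 96 of the coding sequence are given for both, from GENCODE M21 transcripts, with the differing base in capitals.
Rpl30: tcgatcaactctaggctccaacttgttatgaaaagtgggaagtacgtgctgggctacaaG
Gm12191: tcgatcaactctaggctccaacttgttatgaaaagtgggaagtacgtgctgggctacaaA

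Rpl30 lies at chr15:34440505-34443640 and Gm12191 at chr11:49678710-49679057, both on the minus strand. The 7 copies of Rpl30 together had a shift of -1.59 (-1.68 to -1.49), and Rpl30 summed with them had -0.26 (-0.34 to -0.19). The shift of the gene alone is therefore uncertain and is not carried by the sum of the family. For Rpl21 the copies changed the value the other way: 0.18 (-0.14 to 0.51) for the gene alone and 1.53 (1.42 to 1.65) with its 23 copies.

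**Figure D4:**
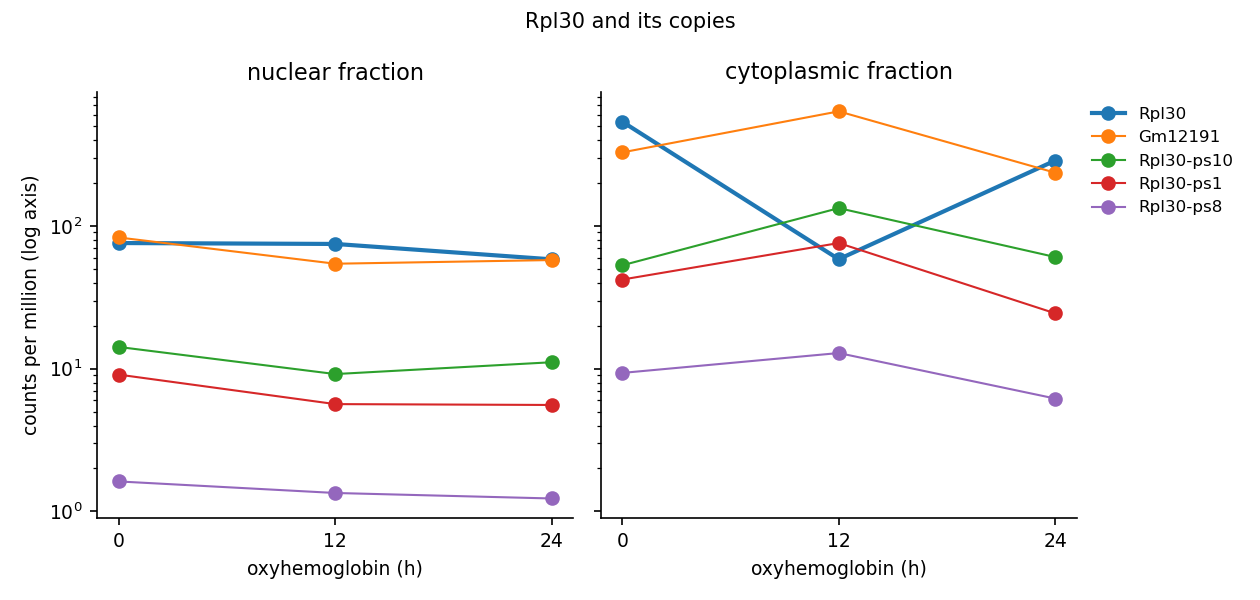
CPM on a log axis (y axis) of Rpl30 and its 4 copies among the measured genes at 0, 12 and 24 h (x axis) in the nuclear (left) and cytoplasmic (right) fraction, 1 group mean per point. In the cytoplasm Rpl30 goes from 537 to 58.5 CPM at 12 h while Gm12191, Rpl30-ps10, Rpl30-ps1 and Rpl30-ps8 are each at their highest of the 3 times.

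Chaperones that fold secreted and membrane proteins in the endoplasmic reticulum lay toward the nucleus relative to all genes. Of 24 measured, 21 lay above the median of all genes, 4 were called toward the nucleus and 0 toward the cytoplasm, and the median was 0.67. About the median of all genes none of the 24 was called, the 4 below included. P4hb, a protein disulfide isomerase, rose from 210 to 491 CPM in the nucleus and stood at 1788 and 1734 CPM in the cytoplasm, a shift of 1.27 (1.21 to 1.32). Pdia3, of the same family, rose from 63.4 to 193 CPM in the nucleus with 376 and 512 CPM in the cytoplasm, a shift of 1.16 (1.07 to 1.26). The chaperone Hyou1 was similar at 1.17, and Pdia6, at 1.24, had a shift of -0.07 at 24 h.

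Lysosomal and phagocytic genes had a median of 0.76 over 40 members, with 11 called toward the nucleus and 2 toward the cytoplasm. About the median of all genes these counts were 0 and 3, where 2.01% and 6.97% of all genes were called. Most of the distance came from the cytoplasm, with a median part of -0.58 against 0.15 in the nucleus. Tpp1, a lysosomal protease, fell from 134 to 46.1 CPM in the cytoplasm and stood at 89.0 and 79.4 CPM in the nucleus, a shift of 1.37 (1.21 to 1.54). Atp6ap1, an accessory subunit of the proton pump, had 1.31 (1.07 to 1.55). Atp6v0c and Cd68, described above, moved opposite to these.

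Genes that the oxidative stress factor NRF2 induces had a median of 0.73 over 23 members, with 4 called toward the nucleus and 1, Maff, toward the cytoplasm, against 2 and 1 about the median of all genes. Cat, which breaks down hydrogen peroxide, rose from 26.0 to 78.7 CPM in the nucleus and stood at 249 and 266 CPM in the cytoplasm, a shift of 1.50 (1.36 to 1.65). Hmox1, which opens the heme ring, rose in both fractions, from 83.6 to 405 CPM and from 690 to 2129 CPM, and was not called at 0.65 (0.57 to 0.73). Slc7a11, the cystine importer, was also not called at 0.78 (0.74 to 0.83). Fth1, the heavy chain of the iron store ferritin, sat at the threshold with 1.00 (0.95 to 1.05). Of 26 genes of heme and iron handling, 6 were called toward the nucleus and 0 toward the cytoplasm (11.7% and 2.52% of all genes). About the median of all genes these counts were 1 and 2 (2.01% and 6.97% of all genes). The list's median of 0.47 was near that of all genes, with 13 members above it and 13 below. That order turned at a minimum of 30 counts. The 6 included Blvrb, a biliverdin reductase, at 1.53 and Lrp1, the receptor for heme bound to hemopexin, at 1.12 (1.09 to 1.16).

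Interferon response genes had a median of 0.63 over 28 members and 6 calls about 0, all toward the nucleus. About the median of all genes, 2 were called toward the nucleus and 1 toward the cytoplasm. Stat2, a subunit of the interferon-activated transcription factor, rose from 8.07 to 17.3 CPM in the nucleus and stood at 6.16 and 3.22 CPM in the cytoplasm, a shift of 2.04 (1.43 to 2.65). The cytoplasmic mean counts of Stat2 were only 29 at 0 h and 12 at 12 h. Tap1, a peptide transporter of antigen presentation, had a shift of 1.44 (0.94 to 1.94). The place of this list above the median of all genes turned when genes with overlapping exons were left out.

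Genes of resting microglia, measured for 15 of 30, had a median of 0.70, and both of their median parts were below 0, at -0.48 in the nucleus and -0.96 in the cytoplasm. Gpr183, an oxysterol receptor that guides migration, fell from 76.2 to 24.1 CPM in the nucleus and from 139 to 14.1 CPM in the cytoplasm, a shift of 1.64 (1.37 to 1.91). Igf1, a growth factor of disease-associated microglia, likewise fell in both fractions, by 1.57 and 2.82 on the log2 scale, with a shift of 1.24 (1.05 to 1.44). The 25 measured genes of disease-associated microglia had a median of 0.27, with 6 called toward the nucleus and 2 toward the cytoplasm, against 0 and 3 about the median of all genes. The place of this list below that median turned under 5 of the 12 other settings, and its median was 0.60 at a minimum of 30 counts.

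Other transcripts with large nuclear shifts had little nuclear change. Skap2, an adaptor in integrin signalling, fell in the cytoplasm, where its mean count was 576 at 0 h and 93.3 at 12 h, and stood at 166 and 128 CPM in the nucleus, a shift of 1.92 (1.73 to 2.12). Sgpp2, a phosphatase of sphingosine-1-phosphate, fell from 17.0 to 2.86 CPM in the cytoplasm. Its mean count there at 12 h was 10.7, just above the minimum. The shift of Sgpp2 was 2.30 (1.75 to 2.85) at 12 h and 0.90 at 24 h. Ahnak, a giant scaffold protein, rested on many reads and fell from 5053 to 1248 CPM in the cytoplasm with 4227 and 3263 CPM in the nucleus, a shift of 1.64 (1.61 to 1.67). Cdt1, which licenses replication origins, had 2.02 (1.69 to 2.35).

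Genes of respiration lay below the median of all genes. Mitochondrially encoded transcripts, which are made outside the nucleus, had a median of 0.10 over 10 members and no call about 0, with 2 toward the cytoplasm about the median of all genes. Nuclear-encoded subunits of oxidative phosphorylation had 0.11 over 40 members with 4 called toward the nucleus and 2 toward the cytoplasm, against 2 and 7 about the median of all genes. Lists of splicing factors, mRNA export, glycolysis, DNA replication, mitosis, heat shock, cholesterol synthesis and p53 targets had medians from 0.23 to 0.59.

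Base composition and level went along with the shift among protein-coding genes, as a description across genes that share libraries. In the 20% of genes with the lowest GC content, with a median of 41.3% GC, the median shift was 0.26 and 4.13% were called toward the nucleus. In the 20% with the highest, at 57.6% GC, the median was 0.65 and the share 21.8%. Spearman's rho was 0.24 over 7624 genes. Level was the mean log2 CPM of the 4 groups that also give the shift and the count minimum, so it is not independent of the shift. Against this level rho was 0.28, with median shifts of 0.22 in the lowest 20% and 0.67 in the highest 20%. Against transcript length it was 0.12 and against the number of exons 0.00. Against the log2 nuclear-to-cytoplasmic ratio at 24 h, which is not part of the shift, it was -0.27. Median shifts were 0.60 in the 20% of genes with the lowest such ratio and 0.11 in the 20% with the highest. The part that GC content, level and the nuclear-to-cytoplasmic ratio play in the gene lists above was not tested.

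**Figure D5:**
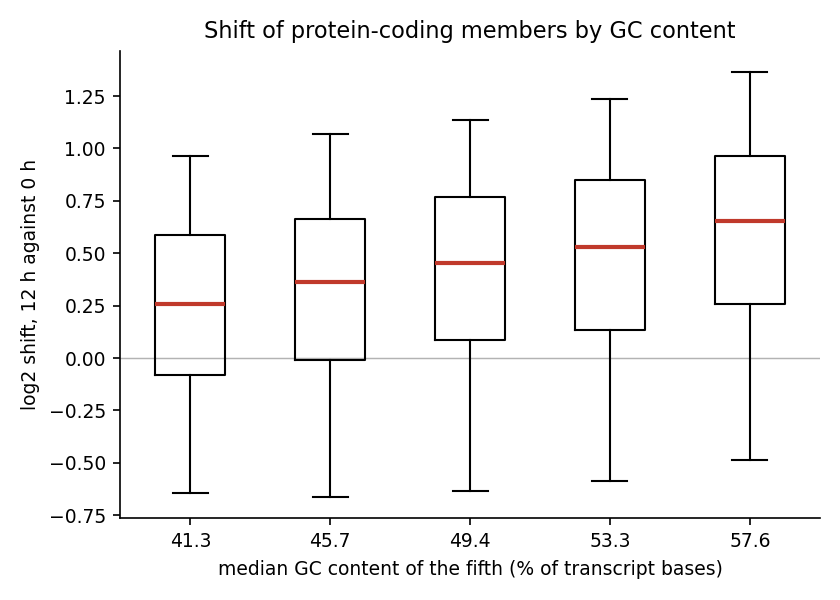
Shift at 12 h against 0 h (y axis, log2) of protein-coding genes in 5 equal groups by GC content of the transcript (x axis, the median of each group). Boxes span the middle 50% with the median in red, and whiskers reach the 5th and 95th percentiles; the medians go from 0.26 to 0.65.

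Gene classes differed in the same description. The 379 processed pseudogenes had a median of 0.51, the 215 lincRNA genes 0.14 and the 185 antisense genes 0.08, against 0.44 for 7628 protein-coding genes. Without a stated strand setting, reads of antisense genes cannot be told apart from those of their partners.

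At 24 h the same genes had a median shift of 0.41, with 933 called toward the nucleus (10.4%) and 203 toward the cytoplasm (2.26%). The comparisons at 12 h and 24 h share both untreated groups, so their likeness is not evidence of its own. The median log2 nuclear-to-cytoplasmic ratio was -1.25, -0.88 and -0.87 at 0, 12 and 24 h.

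The summed counts of the 3 libraries ran from 14652566 to 22379595 over the 4 groups, and the 8985 genes held 91.0% to 99.0% of them. Among 263 genes whose lowest mean count was between 10 and 11 the median shift was 0.06, and among 277 genes just below the minimum, with 9 to 10 counts, it was 0.13. Of 18 microglia and macrophage markers, 7 were among the genes measured, including Cd14, Ptprc, Laptm5 and Spi1, while P2ry12 was at or near 0 in all groups and Aif1, Cx3cr1 and the C1q genes had few counts. Markers of other brain cells were at 0 in every group for 7 of 21 genes, and 2 were among the genes measured, Vwf at 1.15 and Mbp at 0.90. Markers of fibroblasts, muscle and blood cells summed to 2.83 CPM in the cytoplasm at 0 h, 51.0 CPM at 12 h and 8.36 CPM at 24 h, with 20.5 CPM at 0 h and 19.5 CPM at 12 h in the nucleus. Actc1, the cardiac actin, gave 33.0 CPM of the cytoplasmic sum at 12 h, and 0 CPM in the cytoplasm at 0 h and in the nucleus at both times. The collagens Col1a1 and Col3a1 stood at 4.02 and 3.58 CPM in the cytoplasm at 12 h and at 0 CPM there at 0 h. The nuclear sums came mostly from Acta2 and Alas2, at 10.4 and 7.54 CPM at 0 h and 7.95 and 9.26 CPM at 12 h. Of the 18, 6 were at 0 throughout. None of these 18 was among the genes measured, and the part of such RNA in the shifts was not tested.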

How the data were processed

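Nuclear and cytoplasmic RNA of BV2 cells was sequenced at 0, 12 and 24 h of 10 µM oxyhemoglobin, with 3 libraries per group and 18 in all. The submitters' processing notes name HISAT2 2.2.0, featureCounts, DESeq2 and the build GRCm38. The annotation release is not given in the sources used here, nor is the strand setting. The deposited estimated count of each gene and group is the mean of the 3 libraries, since every value times 3 was whole within 0.001. The deposited TPM values, also 1 per group, were used as an alternative only. The number of per-sample columns not used was 0.

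The planned interaction test over libraries was replaced, as the design foresaw, by the size of the shift with a 95% counting interval, a normal approximation on the log scale from the summed reads of the 3 libraries. It does not measure differences between cultures. TMM factors, trimming 30% of log ratios and 5% of levels, scaled all 6 group means together, in Python 3.11.15 with numpy 2.4.6 and pandas 2.3.3. The calculation was tested on simulated data. Symbols, positions and sequences came from GENCODE M21, which held 8976 of the 8985 genes. The value of a gene is uncertain where at least 20% of its 31-base stretches occur in another gene, as for 1716 genes (19.1%). Such genes were kept in the main counts and list medians, and the intervals do not cover this uncertainty.

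The members, the 34 gene lists and the tests were chosen with earlier results of these data known. Named genes were the 12 in each direction with the counting bound farthest from 0 and a plain symbol, up to 4 called members of each list (the 2 largest shifts if none was called), up to 6 in each direction with opposite changes in the fractions, and 18 fixed genes, 126 in all. Csf1, Jun, Srsf3, Clk1, Srrm2, Rn7sk, Gm12191, Actc1, Rpl21, Rpl21-ps15, Rpl30-ps10, Rpl30-ps1, Rpl30-ps8 and the markers of cell types are named outside that rule.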

Additional observations from a re-analysis of the deposited data

How the results depend on the processing

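The deposited columns are group means, so differences between cultures could not be measured, and no replicate could be left out. No paired analysis was possible because the columns carry no replicate number. The counts called toward the nucleus and toward the cytoplasm were 1055 and 226 of 8985 genes. They became 297 and 471 with total counts, 2672 and 97 with deposited TPM, and 85 and 35 at 3-fold. Other count minimums also changed the number of genes measured, so their counts are to be read beside it. They were 445 and 9 of 3692 genes at a minimum of 100 counts. With the minimum in any 1 group and 1 count added, they were 1588 and 1057 of 17597 genes. At a minimum of 30 counts they were 720 and 56 of 6155 genes, and with 1 CPM added 849 and 143 of 8985. Alternatives added after seeing the data gave 181 and 626 about the median of all genes, and 245 and 519 with totals that leave out mitochondrial genes and the most abundant nuclear gene. The median shift, 0.42, was 0.10 with total counts, 0.72 with TPM, 0.57 at a minimum of 100 counts, 0.21 with the minimum in any 1 group, 0 when centred and 0.0623 with the reduced totals. The cause of these moves was not tested, apart from scaling, which shifts all genes by 1 amount, and stricter limits, which leave fewer genes. Of 113 named genes called, 52 kept their call under all 6 other scalings, 31 toward the nucleus and 21 toward the cytoplasm. Among those that kept it are Csf3, Fos, Ddit3, Zc3h12a, Cd68, Snord13, Snord118, Eef1a1, Cat, Stat2 and Ahnak. Those that did not include Il1a, Ccl3, Il1rn, Btg2, Traf1, Tnfaip3, Neat1, Eef2, P4hb, Tpp1, Lrp1 and Hist2h4. For genes near 10 counts in a group, depth limits the shift to a wide interval, as for Proser3 and Sgpp2.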
